A study of Mus musculus with 2 samples.

Results

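Protein tyrosine phosphatases and dual-specificity phosphatases remove phosphate from tyrosine, or from tyrosine together with serine and threonine, and most do so with a cysteine in the catalytic site. They oppose the kinases that drive neutrophil adhesion, phagocytosis and cytokine output. SHP-1 is recruited by inhibitory receptors, CD45 and CD148 act on Src family kinases at the membrane, and the MAP kinase phosphatases switch off ERK, JNK and p38. The genes described here are those whose symbol starts with Ptpn and a digit, Ptpr and a letter, or Dusp and a digit, and that had a probe set assigned to no other gene. This gave 59 of 18194 genes, read by 129 of 34958 single-gene probe sets. The symbol rule also takes in Ptprcap, which encodes a partner of CD45 and not a phosphatase, and Dusp27, whose product lacks the catalytic cysteine.

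The cells were DAPI-negative, Gr-1-high, CD48-negative neutrophils, sorted by flow cytometry from the bone marrow of C57BL/6 mice, and the labels name no treatment or allele. There was 1 group with 1 expression array for each of 2 independent experiments, replicate 1 and replicate 2. The sources used here do not give the age, sex or number of the mice. Each array averages all sorted cells, so fewer cells of a type and less RNA per cell cannot be told apart. The labelled cell type was checked on its markers, of which all 10 measured (of 12 listed) were above background on both arrays, among them S100a8 with signals of 36507 and 64632 and Ltf with 18878 and 33399. Of the 10, 8 were higher on replicate 2, while the receptor genes Cxcr2 (7212 and 3224) and Csf3r (7951 and 4670) were lower there.

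Every value is a MAS5 signal, a linear brightness per probe set that had been scaled to the same trimmed mean on both arrays. Background was the 95th percentile of 87 probe sets for sensory receptor genes, which was 108 for the first array and 131 for the second. A gene with several probe sets is given by the brightest of them, and signals are not compared between genes because probe sets bind with different strength. Each pair of signals below is replicate 1 and then replicate 2. Differences are log2 signal of replicate 2 minus replicate 1, and with 1 array per experiment they carry no test. Directions are on the deposited scale. Scaled to the hybridisation controls instead, which lowers replicate 2 and moved the median of all genes to -0.65, every one of the 18 genes described as above background on both arrays was lower on replicate 2.

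Of the 59 genes, 18 (30.5%) were above background on both arrays, 8 on a single array and 33 on neither. Over all measured genes the share above background on both arrays was 40.4%, against which the 30.5% is to be read. By probe set, 29 of 129 (22.5%) were above background on both arrays, against 35.5% of all single-gene probe sets. Among the symbol groups the counts were 8 of 16 Ptpn genes, 5 of 19 Ptpr genes and 5 of 24 Dusp genes. These shares are descriptions, with no test of one group against another.

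**Figure D1:**
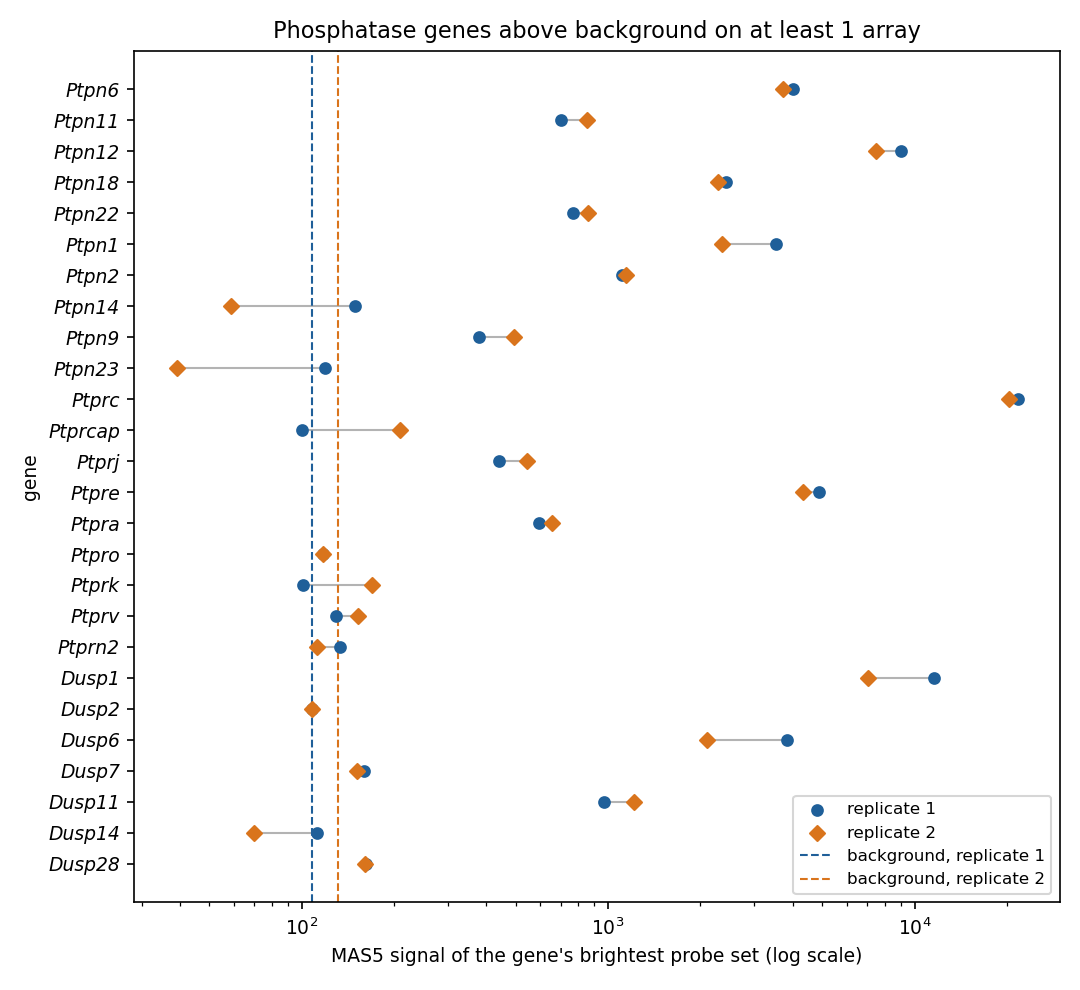
MAS5 signal (horizontal log axis) of the 26 phosphatase genes above background on at least 1 array, by role from top to bottom. Circles are replicate 1, diamonds replicate 2, and dashed lines the background of each array (108 and 131); the 18 genes with each point to the right of its own line include Ptprc at 21712 and 20404, while 8 have 1 point to the left of its line.

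The 2 non-receptor phosphatases with SH2 domains, which bind phosphorylated receptor tails, were both above background. Ptpn6 encodes SHP-1, whose loss in motheaten mice causes neutrophil-rich inflammation. Its signals were 4016 and 3729, a log2 level of 11.92 ± 0.08 (SD, n = 2). A further probe set of Ptpn6, of the _x_at kind that may bind other transcripts, read 3024 and 3158. The difference thus changed sign between the probe sets (-0.11 and 0.06). Ptpn11 encodes SHP-2, which mostly promotes ERK signalling downstream of growth factor receptors. It had signals of 699 and 852, or 9.59 ± 0.20 (SD, n = 2), higher on replicate 2 on all 3 of its probe sets. One of those 3 was above background on replicate 2 alone, with signals of 97.9 and 198.

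All 3 phosphatases of the PEST type, whose tails hold proline-rich docking motifs, were above background. Ptpn12 encodes PTP-PEST, which binds the cytoskeletal adaptor PSTPIP1 and acts on adhesion proteins. Its signals were 9064 and 7506, or 13.01 ± 0.19 (SD, n = 2). All 4 probe sets of Ptpn12 were above background and lower on replicate 2, by log2 differences from -0.27 to -1.01. The probe set at -1.01 (5584 and 2769) is of the _x_at kind, which may bind other transcripts. It was the 1 member probe set above background on both arrays that differed over 2-fold on the deposited scale. Of the 4, all but one were designed from the same mRNA record, so they are not separate measurements of the gene. Ptpn18, the phosphatase of haematopoietic cells that binds the kinase CSK, had 2430 and 2286, or 11.20 ± 0.06 (SD, n = 2). Ptpn22, the leukocyte phosphatase LYP in human, had 768 and 860, or 9.67 ± 0.11 (SD, n = 2). The log2 differences of these 2 genes were -0.09 and 0.16.

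Ptpn1 and Ptpn2 encode the close relatives PTP1B, anchored to the endoplasmic reticulum, and TCPTP, found there and in the nucleus, which both dephosphorylate JAK kinases. Ptpn1 had 3540 and 2350, or 11.49 ± 0.42 (SD, n = 2). Its other probe set read 1674 and 1129, and the difference was -0.59 on one and -0.57 on the other. Ptpn2 had 1108 and 1146, or 10.14 ± 0.03 (SD, n = 2), with 2 of its 4 probe sets above background. Ptpn1 was lower on replicate 2 by 1.51-fold on its brightest probe set. The difference of Ptpn2 was 0.05 and had no settled direction: it was -0.08 with median scaling and -0.39 with the mean of its probe sets.

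Ptpn9 encodes MEG2, a phosphatase of secretory vesicles. Its signals were 380 and 492, or 8.76 ± 0.26 (SD, n = 2), and its difference of 0.37 was the highest among the 18 genes. Ptpn23, which encodes the endosomal sorting protein HD-PTP, was above background on replicate 1 alone (119 and 39.0). Ptpn20 was above it on neither array (26.3 and 40.8). The FERM-domain phosphatases, which tie to the membrane skeleton of many epithelial cells, held no gene above background on both arrays among 5. For Ptpn14 replicate 1 alone exceeded it (149 and 58.6), at least 1.13-fold higher there when the background of replicate 2 is taken as its signal. Ptpn3, Ptpn4, Ptpn13 and Ptpn21 were below background on both arrays, with signals from 4.79 to 113. The kinase-interaction-motif phosphatases Ptpn5 and Ptprr, known best from neurons, were also below it (2.40 to 56.2), and Ptpn7, the leukocyte member of that type, was not analysed here.

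Among the receptor phosphatases, 4 of 6 genes of the leukocyte group and 1 of 10 of the adhesion and neural group were above background on both arrays, with no test of one group against the other. Ptprc encodes CD45, the abundant surface phosphatase of nucleated blood cells. Its signals were 21712 and 20404, or 14.36 ± 0.06 (SD, n = 2), a difference of 1.06-fold. A further probe set of Ptprc read 2136 and 1456, a difference of -0.55 against -0.09 on the brighter one. Ptpre, a receptor phosphatase with a short extracellular part that is also made as a cytosolic form, had 4881 and 4338, or 12.17 ± 0.12 (SD, n = 2). Ptpra, its nearest relative, had 593 and 656, or 9.29 ± 0.10 (SD, n = 2). Ptprj encodes CD148, which with CD45 removes the inhibitory phosphate of Src family kinases. It had 442 and 544, or 8.94 ± 0.21 (SD, n = 2), with 2 of its 4 probe sets above background and those 2 of opposite sign (0.30 and -0.09). On their brightest probe sets these 4 genes differed by -0.17 to 0.30 on the log2 scale.

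Ptpro, a receptor phosphatase, had 117 on each array, above the background of replicate 1 alone. Ptprcap had 100 and 209, above the background of replicate 2 alone and at least 1.94-fold higher there by the bound. Its product associates with CD45 in lymphocytes, so the lymphocyte markers are given beside it. Of 8 measured B cell markers none was above background on both arrays, 2 (Ms4a1 and Pax5) were above it on replicate 2 alone and 1 (Vpreb3) on replicate 1 alone. The summed signal of the B cell markers was 458 on replicate 1 and 679 on replicate 2, and that of 5 T cell markers 598 and 617. Of the T cell markers Cd3d alone was above background on both arrays (433 and 374), and Cd8a on replicate 2 alone (99.9 and 135). None of 4 measured NK cell markers was above it on both arrays, and Prf1 was above it on replicate 1 alone (133 and 88.6). Most of these markers were below background, so the sums show neither presence nor absence of such cells. The part of such cells in the Ptprcap signal was not tested.

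Of the 10 measured adhesion and neural receptor phosphatases, Ptprv was the only one above background on both arrays. Ptprv, which encodes a receptor phosphatase of bone and testis in mice, had signals of 129 and 153, or 7.13 ± 0.17 (SD, n = 2), close above the background of 108 and 131. Ptprk, a homophilic adhesion phosphatase, was above it on replicate 2 alone on 1 of 7 probe sets (101 and 169, at least 1.57-fold by the bound). Ptprb, the phosphatase of blood vessel endothelium, was below it, and so were Ptprd, Ptprf, Ptprg, Ptprm, Ptprs, Ptpru and Ptprz1, with signals of their brightest probe sets from 6.01 to 98.3. Ptprd was below background on all 7 of its probe sets. Ptprn and Ptprn2 encode secretory granule proteins of endocrine cells with little or no activity on protein tyrosine. Ptprn had 8.94 and 9.002, below background. Ptprn2 had 133 and 112, above the background of replicate 1 alone. Ptprh, Ptprq and Ptprt were not analysed here.

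Of the MAP kinase phosphatases, 1 of 4 inducible nuclear genes, 2 of 3 cytoplasmic ERK genes and none of 3 JNK and p38 genes were above background on both arrays. Dusp1 encodes MKP-1, a nuclear phosphatase of p38 and JNK whose gene is switched on within minutes of a stimulus. Its signals were 11609 and 7033, or 13.14 ± 0.51 (SD, n = 2). The other inducible nuclear members were near or below background: Dusp2, the PAC-1 of activated leukocytes, had 108 on each array, above the background of replicate 1 by less than 1 signal unit and below that of replicate 2. Dusp4 had 4.26 and 2.26, and Dusp5 had 27.2 and 8.19. Dusp6 encodes MKP-3, which holds back ERK in the cytoplasm and is itself induced by ERK signalling. Its signals were 3829 and 2097, or 11.47 ± 0.61 (SD, n = 2). Dusp7, another ERK phosphatase, had 159 and 151, or 7.28 ± 0.05 (SD, n = 2), on 1 of its 3 probe sets, an _x_at one. Dusp9 was below background (38.1 and 29.7). Of the JNK and p38 phosphatases Dusp8, Dusp10 and Dusp16 none was above background, with signals from 9.84 to 49.3.

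Dusp1 and Dusp6 had the lowest differences of the 18 genes, so stretches of their promoters are shown, with Ptpn11, the other gene whose promoter held the same element, for comparison. The sequences are from RefSeq (GRCm38.p6), 5′ to 3′ on the gene's strand. Capitals mark the cyclic AMP response element TGACGTCA, where CREB-type factors can bind, or its core TGACG, searched on both strands of the window from 250 bases before to 50 after the annotated start. The core lies within the full element.
Dusp1, chr17:26508573-26508672, minus strand, starting 200 bases before the start: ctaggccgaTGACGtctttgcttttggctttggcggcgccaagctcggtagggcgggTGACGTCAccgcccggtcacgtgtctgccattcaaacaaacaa
Dusp6, chr10:99263131-99263230, plus strand, starting 100 bases before the start: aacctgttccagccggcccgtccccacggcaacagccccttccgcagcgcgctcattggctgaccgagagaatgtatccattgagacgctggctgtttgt
Ptpn11, chr5:121191418-121191517, minus strand, starting 120 bases before the start: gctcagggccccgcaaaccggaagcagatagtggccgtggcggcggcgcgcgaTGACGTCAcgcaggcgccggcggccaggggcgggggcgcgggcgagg

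In Dusp1 the full element began 143 bases before the start, with a separate core at 191. In Ptpn11 it began 67 bases before the start. The Dusp6 window held neither. Of the 18 genes, 15 had an entry, with 20 promoters in all. The full element was in 2 of these 20 and in 1.79% of all 32851 promoters of the same length, and the core was in 7 of 20 and in 20.8% of all. On the deposited scale Dusp1 was lower on replicate 2 (-0.723) and Ptpn11 higher (0.284). With the controls' scaling both were lower there (-1.445 and -0.438). A relation between the element and these differences was not tested.

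The atypical dual-specificity phosphatases, small enzymes without a MAP kinase docking domain, were mostly below background. Dusp11, which acts on the 5′ phosphates of RNA, had 972 and 1219, or 10.09 ± 0.23 (SD, n = 2). Its other probe set read 733 and 606, so its direction differed between probe sets (0.33 and -0.27). Dusp28 had 162 and 161, or 7.33 ± 0.01 (SD, n = 2), close above background. Dusp14 was above background on replicate 1 alone (112 and 69.9). The other 11 of the 14 genes were below it on both arrays, with signals from 4.03 to 130. They included Dusp3, the VHR phosphatase of ERK and JNK, at 84.7 and 125, Dusp22, a phosphatase of T cell signalling, at 88.7 and 107, and Dusp23 at 79.5 and 130.

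Between the arrays none of the 18 genes differed 2-fold. None was over 2-fold higher on replicate 2, where 3.43% of the 7354 genes above background were, and none was over 2-fold lower, where 1.97% were. At these shares a count of 0 among 18 genes does not set the phosphatases apart. Their differences ran from -0.87 to 0.37 with an SD of 0.36, against an SD of 0.50 over all genes above background. Of the 18, 15 differed by less than 0.5 (83.3%, against 73.0% of all genes). The median was -0.04, against 0.07 for all genes, with 10 genes lower and 8 higher on replicate 2. The 3 beyond 0.5 were Dusp6 (-0.87, or 1.83-fold lower on replicate 2), Dusp1 (-0.72, or 1.65-fold lower) and Ptpn1 (-0.59). These 3 kept their direction with median scaling (-0.998, -0.85 and -0.72) and quantile normalization (-0.80, -0.71 and -0.52). Scaling to the hybridisation controls put these 3 over 2-fold lower (-1.59, -1.44 and -1.31).

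**Figure D2:**
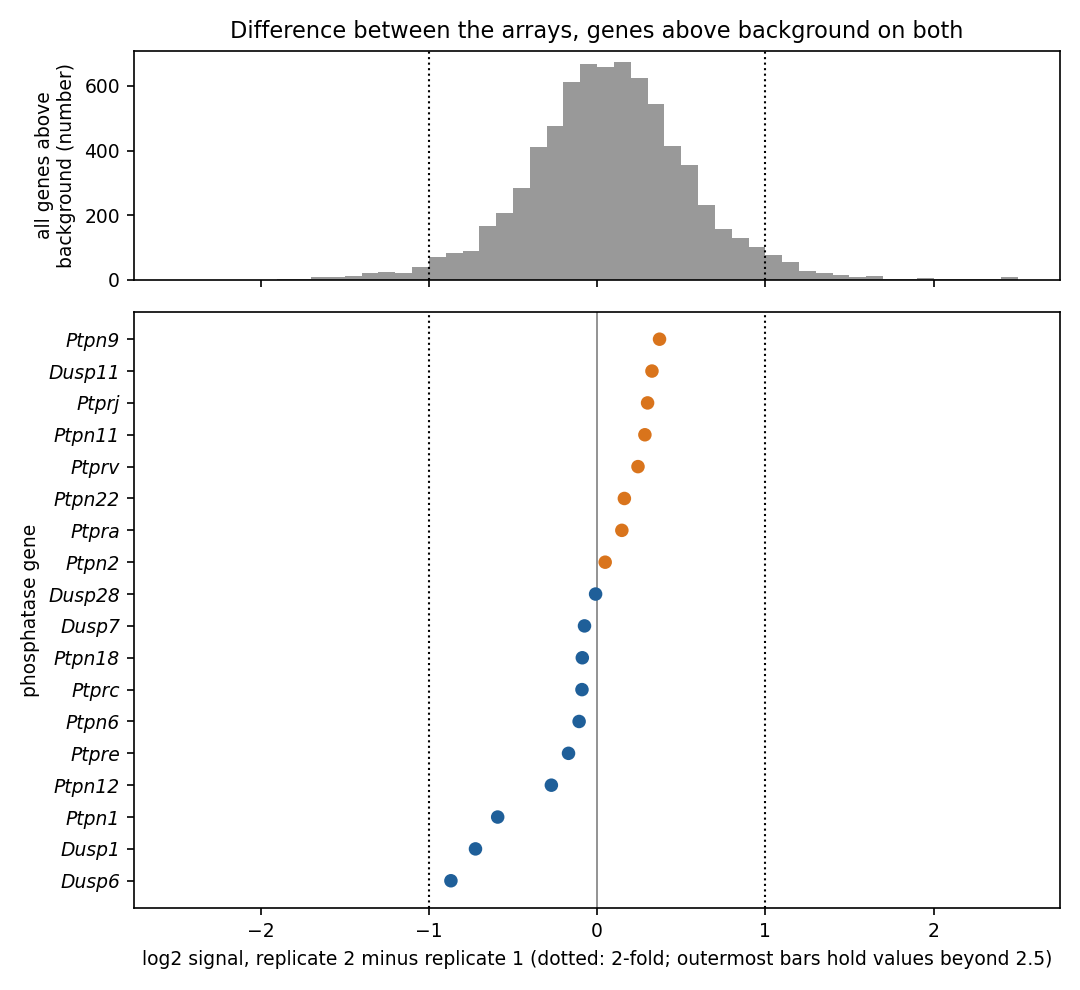
Log2 signal of replicate 2 minus replicate 1 (horizontal axis) for the 18 phosphatase genes above background on both arrays (lower panel) under a histogram of all 7354 such genes (upper panel). Dotted lines mark 2-fold; every phosphatase lies between them, from Dusp6 at -0.87 to Ptpn9 at 0.37.

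Genes of dividing cells moved with the arrays and are given for that reason. Of 14 measured proliferation genes 8 were above background on both arrays, all 8 higher on replicate 2 (7 with the controls' scaling, where Pcna was at -0.25), and 4 more were above it on replicate 2 alone. The summed signal of the 14 was 2247 on replicate 1 and 11029 on replicate 2. Of 7 monocyte markers 3 were above background on both arrays. Csf1r (5020 and 1928) and F13a1 (264 and 231) were lower on replicate 2, and Ccr2 (157 and 220) was higher. Cx3cr1 was above background on replicate 1 alone (165 and 104), and Irf8, Klf4 and Ms4a6c on neither array. The summed signal of the 7 was 5848 and 2723, most of it from Csf1r, so the sum follows that gene more than the list. Cxcr2 and Csf3r, given above, were lower on replicate 2, as Csf1r was. The part of these genes in the differences of Dusp1, Dusp6 and Ptpn1 was not tested.

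The genes below background on both arrays were not reproducible in size. Over these 33, the difference between arrays ran from -4.32 (Ptprr) to 4.21 (Ptpn13), with an SD of 1.80, and 12 differed over 2-fold although neither array was above background. These folds are not measured changes. Of the 9 genes with more than 1 probe set above background, 6 had the same sign on all of those probe sets, and Ptpn6, Ptprj and Dusp11 did not.

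**Figure D3:**
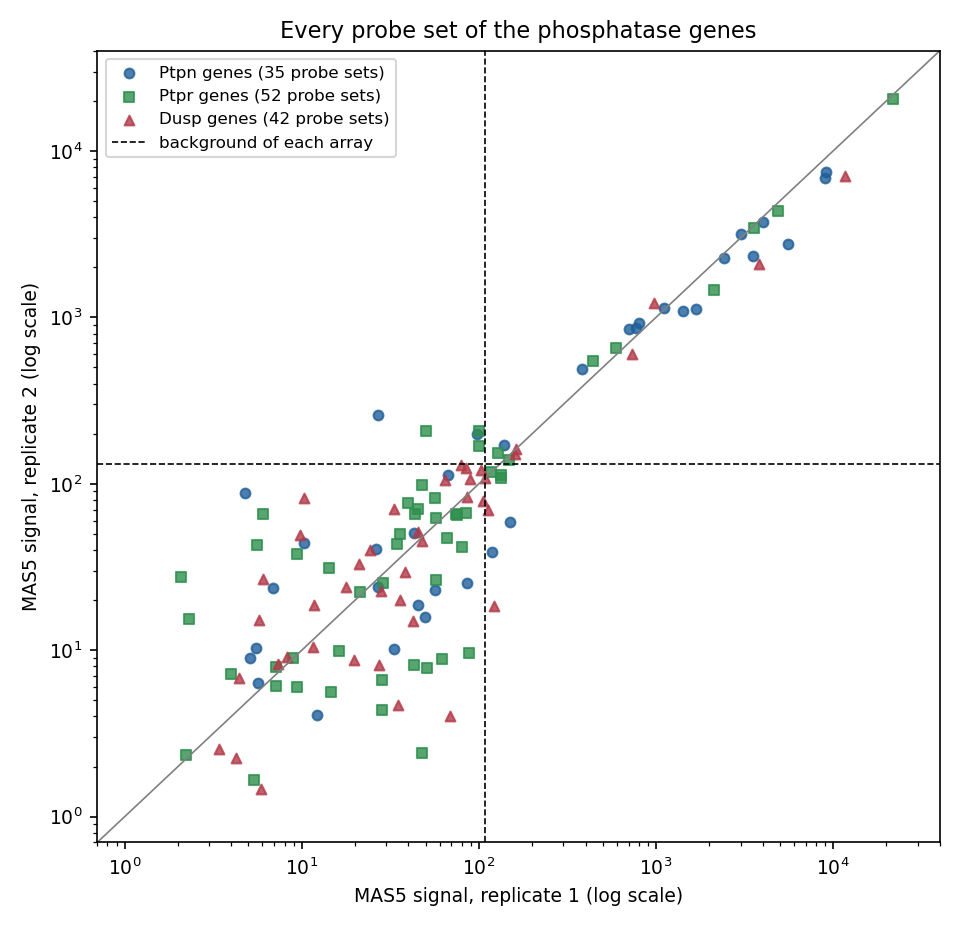
Signal on replicate 1 (horizontal log axis) against replicate 2 (vertical log axis) for all 129 probe sets of the phosphatase genes, with the background of each array dashed and equality as a grey line. The 29 probe sets above both backgrounds lie along the line, and the 87 below both scatter widely around it.

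Genes that work with these enzymes were read from lists of partners. Of 12 measured receptors with inhibitory motifs, which recruit SHP-1 or SHP-2, 9 were above background on both arrays. They included Sirpa, the receptor for CD47 (5010 and 3234), the lectin gene Clec4a2 (4988 and 7388), Pilra (4786 and 3161) and Siglece (162 and 154). None of the 9 differed over 2-fold on the deposited scale. On the deposited scale 6 were lower on replicate 2, while Clec4a2 (0.57), Ceacam1 (0.73) and Fcgr2b (0.49) were higher. With the controls' scaling Clec4a2 (-0.16) and Fcgr2b (-0.23) were lower and Ceacam1 was at 0.01. The same scaling put Sirpa (-1.35), Pilra (-1.32), Cd300a (-1.58), Cd300lf (-1.16) and Cd33 (-1.32) over 2-fold lower on replicate 2.

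Among Src family kinases and their regulators, Fgr (4186 and 2840), the inhibitory kinase gene Csk (1105 and 864) and Pag1, which anchors CSK at the membrane (8015 and 5979), were above background, 3 of 6 measured. Of 8 MAP kinase genes 4 were above it: Mapk14, which encodes p38 alpha and is a substrate of MKP-1 (5476 and 3978), Mapk13 (2464 and 3085), and the JNK genes Mapk8 (260 and 233) and Mapk9 (437 and 411). Of 7 adaptor genes 6 were above background, including Pstpip1, the partner of PTP-PEST (2601 and 1998), its relative Pstpip2 (1588 and 1426) and Gab2, which carries SHP-2 (796 and 589). Gab1 was not above it (63.2 and 27.0). On the deposited scale none of the genes above background in these 3 lists differed over 2-fold. With the controls' scaling Fgr (-1.28), Csk (-1.08), Pag1 (-1.145), Mapk14 (-1.18), Pstpip1 (-1.10), Gab2 (-1.16) and Skap2 (-1.05) were over 2-fold lower on replicate 2.

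Of 24 measured genes listed as other tyrosine phosphatases, outside the symbol rule, 13 were above background on both arrays. Activity on tyrosine was not checked for the listed genes. Acp1, the low-molecular-weight phosphatase, had 1352 and 1344, and Ptp4a2 had 3985 and 4149. The 2 that differed over 2-fold on the deposited scale both act in the cell cycle and were higher on replicate 2. They were Cdkn3, a phosphatase of CDKs, with signals of 122 and 654 (5.37-fold), and Cdc25a, which activates CDKs, with 377 and 801 (2.13-fold). Their log2 differences of 2.43 and 1.09 were 1.70 and 0.37 with the controls' scaling. With replicate 1 at 122, Cdkn3 lay close above the background of 108 there, so its fold is uncertain. The proliferation genes given above were higher on the same array, and their relation to Cdkn3 and Cdc25a was not tested. With the controls' scaling Ssh1 (-1.06) and Ssh2 (-1.60) were over 2-fold lower on replicate 2.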

How the data were processed

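Total RNA of sorted neutrophils was labelled as biotin cRNA and put on arrays, 1 for each experiment, per the labels' protocols. The deposited values are signal intensities that the authors made with MAS5, per the submitters' processing notes; the sources used here give no version, settings or detection calls. The trimmed mean without the lowest and highest 2% was 250.0 on both arrays, so a difference is relative to that scaling. Gene names came from the annotation of the array platform in GEO. All 59 gene identifiers were found in the NCBI table (GRCm38.p6), with no symbol changed.

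From the intensities, log2 signals (floor 1), a background from sensory receptor probe sets (olfactory, vomeronasal, trace amine and taste) and differences between arrays were computed with Python 3.11.15, numpy 2.4.6 and pandas 2.3.3. A gene counts as above background through any 1 of its probe sets. Its level is the brightest probe set by mean log2 signal. The scripts were tested on simulated data. There is 1 group, so no test between groups was made, and the number of arrays, 2, limits the precision. The members, role lists, partner lists and alternatives were chosen with earlier results of these data known. All members above background on any array are named, with the others by range. Of the partner lists, members over 2-fold different on the deposited scale and early listed members are named. Ceacam1, Fcgr2b, Cd300a, Cd300lf, Cd33, Skap2, Ssh1, Ssh2 and the kinase genes above background were named after their values were seen. Dusp1, Dusp6 and Ptpn11 were picked for their promoters after their values were seen. Protein sequences were not used here.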

Additional observations from a re-analysis of the deposited data

How the results depend on the processing

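The count of 18 genes above background on both arrays was 23 with the 90th percentile of the sensory receptors and 15 with the 99th. It was 20 with olfactory receptors alone, 17 without _x_at and _s_at probe sets and 17 with the mean of a gene's probe sets. Counted on each array whatever the other showed, 24 genes were above background on replicate 1 and 20 on replicate 2. Dusp7, Dusp28 and Ptprv were lost at the 99th percentile, and Dusp7 in the 2 probe set settings too. The count over 2-fold higher on replicate 2, 0 as reported, was 1 (Ptprcap) with the 90th percentile and with olfactory receptors alone, 2 (Ptpn18 and Ptpra) with the mean of all probe sets, each through a dim probe set below background on replicate 1, and 6 with no filter on background. The count over 2-fold lower, also 0, was 3 with scaling to the hybridisation controls and 9 with no filter. The median difference was -0.17 with median scaling and -0.76 with the controls; the medians over all genes were then -0.06 and -0.65. The 72 single-gene differences recomputed were of 18 genes in 4 settings, without the controls' scaling. Of these, 67 moved by less than 0.36 and 4 changed sign. The 4 were Ptpn2 with median scaling (-0.08), and Ptpn2 (-0.39), Ptprj (-0.15) and Ptpn18 (1.58) with the mean of all probe sets. With the controls' scaling all 18 genes were lower on replicate 2, including the 8 that were higher there on the deposited scale. Depth in reads does not apply to arrays; signals near background limit Ptprv, Dusp7, Dusp28 and Dusp2.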

Other observations

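Some dim probe sets stood apart from the brighter probe set of the same gene. For Ptpn18 a further probe set read 27.1 on replicate 1 and 259 on replicate 2, at least 2.40-fold higher on replicate 2 by the background bound, while its brighter probe set read 2430 and 2286. For Ptpra the further probe set read 50.5 and 208, at least 1.94-fold higher by the bound, beside 593 and 656 on the brighter one. For Ptpn11 it read 97.9 and 198, at least 1.84-fold higher by the bound, beside 699 and 852. For Dusp7 a further probe set went the other way, with 122 and 18.3 beside 159 and 151; it was above background on replicate 1 alone and gives no fold by the bound. Which transcripts these probe sets bind was not tested.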
